A study of Homo sapiens with 18 samples.

Results

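Titin (TTN) is the giant spring protein of striated muscle, and its transcript was followed here as a target of the RNA-binding protein QKI while human embryonic stem cells became beating cardiomyocytes. Its peaks were all rows on the minus strand that overlapped the gene, chromosome 2 from 179390716 to 179672150 on hg19, a span of 281435 nt. These were 1201 of the 879442 clusters listed for 9 libraries and 67 of the 10301 rows of the 3 merged lists. The gene was selected on its numbers of QKI peaks at day 8 and day 0 in these same lists, so its counts by day are a description and were not tested.

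The cells were HUES6, an embryonic stem cell line, profiled by eCLIP. In this assay proteins are crosslinked to RNA by ultraviolet light, QKI is immunoprecipitated (IP) and the bound RNA fragments are sequenced beside an input. Day 0 cells were pluripotent. Day 4 cells were cardiac progenitors that had received 1.5 uM CHIR and 1.5 ng/mL BMP4 and then 100 nM C59, and day 8 cells were cardiomyocytes from the same protocol taken once they beat. All were crosslinked at 400 mJ/cm2 and immunoprecipitated with 1 antibody to QKI, and each day had 3 IP libraries. The labels did not say whether these came from separate cultures, and all came from 1 cell line, so the spread between libraries may be technical.

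Titin runs from the Z-disc, where its N terminus is anchored, through the elastic I-band to the thick filament of the A-band and the M-band at its C terminus. The I-band part holds the immunoglobulin domains, the N2B and N2A elements and the PEVK stretch that act as a spring. It is encoded by many alternatively spliced exons, whose inclusion sets the stiffness of heart muscle and is controlled by splicing factors, RBM20 being the best known. QKI is a splicing regulator of the STAR family that recognises ACUAA-type elements in introns and untranslated regions. A long noncoding RNA, TTN-AS1, is transcribed from the opposite strand of the same locus.

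A cluster is a stretch with more IP than input reads that the authors listed. A passing peak is a cluster whose enrichment, by the authors' values, was 4-fold or more with p no higher than 0.001. The libraries listed 52462 to 187962 clusters, of which 3030 to 15508 passed, so TTN is given both as a number and as a share of the library's own passing peaks. Read depth is unknown, and intervals cover counting error only. A peak list cannot part more TTN RNA from more QKI bound to each RNA, and in a culture fewer cells of a type and less RNA per cell cannot be told apart either. Peaks are not RNA levels, so the labelled cell types could not be checked against marker genes.

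TTN had no passing QKI peak at day 0, gained some by day 4 and at day 8 held a larger share of the passing peaks than any window of its length examined elsewhere in the genome. Passing peaks on TTN numbered 0, 0 and 0 in the day 0 libraries, 9, 42 and 22 in the day 4 libraries and 95, 80 and 140 in the day 8 libraries. The values of the 3 days did not overlap. As a share of the library's passing peaks, TTN held 0.297%, 0.540% and 0.550% at day 4 and 1.50%, 2.15% and 1.28% at day 8. The day 4 mean was 0.462% ± 0.143 and the day 8 mean 1.64% ± 0.452 (SD, n = 3 each). For single libraries, the Wilson 95% intervals ran from 0.156% to 0.832% over day 4 and from 1.08% to 2.66% over day 8.

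At day 0 the absence of a passing peak allows a TTN share of at most 0.0193% to 0.0236% in a library, the share that 3 peaks would make. With the libraries of a day summed, TTN made up 1.50% of the passing peaks at day 8, at least 206-fold higher than 3 peaks over the 3 day 0 libraries would give. The summed day 4 share, 0.493%, was at least 67.8-fold higher by the same floor. Both folds pool the libraries of a day and leave out the error of the later share. The mean share at day 8 was 3.55 times that at day 4.

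To set these shares beside the rest of the genome, both strands were tiled into windows of the gene's length, and the 1089 windows with at least 20 passing peaks over the 9 libraries were kept. All 3 day 8 shares lay above all 3 day 0 shares in 21.2% of these windows. The same was true of 17.9% for day 4 over day 0 and of 13% for day 8 over day 4, so separation of this kind is common and nothing is read from it for TTN. The size of the share set TTN apart as a description only, since the gene was selected on its numbers of peaks. At day 8 none of the 1089 windows had a higher mean share, the highest being 0.875%, and the median window held 0.0384%. At day 4, 4 windows had a higher mean share than TTN. At day 0, 1048 windows did.

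**Figure D1:**
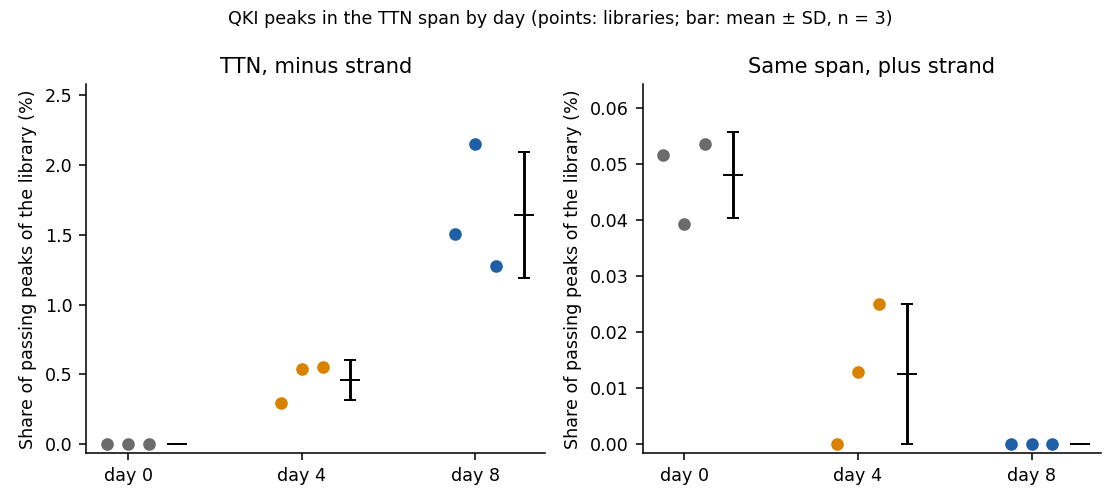
Share of each library's passing QKI peaks (%, vertical axes) on TTN (left panel) and on the plus strand of the same span (right panel), by day; points are libraries and bars the mean ± SD (n = 3). TTN was at 0% at day 0, between 0.297% and 0.550% at day 4 and between 1.28% and 2.15% at day 8, and the plus strand was highest at day 0.

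All listed clusters, the passing ones included, showed the same order of days. The libraries listed 11, 10 and 11 TTN clusters of any fold at day 0, 133, 141 and 160 at day 4 and 323, 234 and 178 at day 8. Of these, 11, 10 and 11 did not pass at day 0, 124, 99 and 138 at day 4 and 228, 154 and 38 at day 8. The clusters that did not pass thus kept no clean order, since day 8 replicate 3 had fewer of them than any day 4 library and replicates 1 and 2 had more. The order of all clusters was the reverse of the length of the lists, since day 0 libraries had the most clusters overall (156660 ± 47433, against 77625 ± 19282 at day 4 and 58863 ± 5606 at day 8). Of the TTN clusters, 6.77%, 29.8% and 13.8% passed at day 4 and 29.4%, 34.2% and 78.7% at day 8. Over the whole lists 4.79%, 11.1% and 4.02% of the clusters passed at day 4 and 12.05%, 6.09% and 17.4% at day 8. Day 8 replicate 3 thus had the fewest TTN clusters of its day and the most passing ones. It also had the highest passing share over its whole list, and the part of this in its TTN count was not tested.

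The 32 clusters of day 0 were weak. None met the limit of p = 0.001 by the authors' values, although 17 were enriched 4-fold or more. The one with the highest log2 fold, 3.91 in day 0 replicate 1 (179530655 to 179530719), had p = 0.00287 by the authors' values. Of the 32 clusters, 14 (43.8%) overlapped a reproducible day 8 peak, and these peaks cover 1.18% of the gene's length. Several of the 14 lay at the same footprint. The overlap of day 0 clusters elsewhere in the genome was not computed, so nothing is read from this share for TTN. At 2 reproducible day 8 footprints, all 3 day 0 libraries listed a cluster. One was 179530617 to 179530677 and the other 179655174 to 179655379. Neither passed in any day 0 library.

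The merged lists, in which the authors kept peaks that passed 4-fold enrichment and an irreproducibility (IDR) comparison of the 3 libraries of a day, gave TTN 0 of 7778 peaks at day 0, 5 of 947 at day 4 and 62 of 1576 at day 8. TTN thus took 0.528% of the day 4 list (Wilson 95% interval 0.226% to 1.23%) and 3.93% of the day 8 list (3.08% to 5.01%), and the 0 at day 0 allows up to 0.0386%. By fold, its peaks did not lead these lists. The strongest ranked 44 in the day 8 list, where it was the one TTN peak among the first 100, and 275 in the day 4 list. The median log2 fold of the TTN peaks was 4.30 beside 4.99 for the whole day 8 list, and 4.98 beside 5.09 at day 4. Its place in these lists thus rests on the number of its peaks, by which the gene was selected.

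Peaks that overlapped or touched were joined, which left 43 day 8 footprints and 5 day 4 footprints. Each was overlapped by a passing peak in 3 of 3 libraries of its day. The merged lists were made by comparing these same libraries, so this adds no independent support. The 43 day 8 footprints lay between 2.41 kb and 211 kb from the 5′ end, and the median gap between neighbours was 477 nt, with 26 of 42 gaps under 1 kb and a largest gap of 45.5 kb. They thus came in groups, with long stretches between them that held no footprint of the merged list. Such stretches were not all empty of passing peaks in single libraries. The largest gap held a region, 179475272 to 179475325, that passed in 3 of 3 day 8 libraries.

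**Figure D2:**
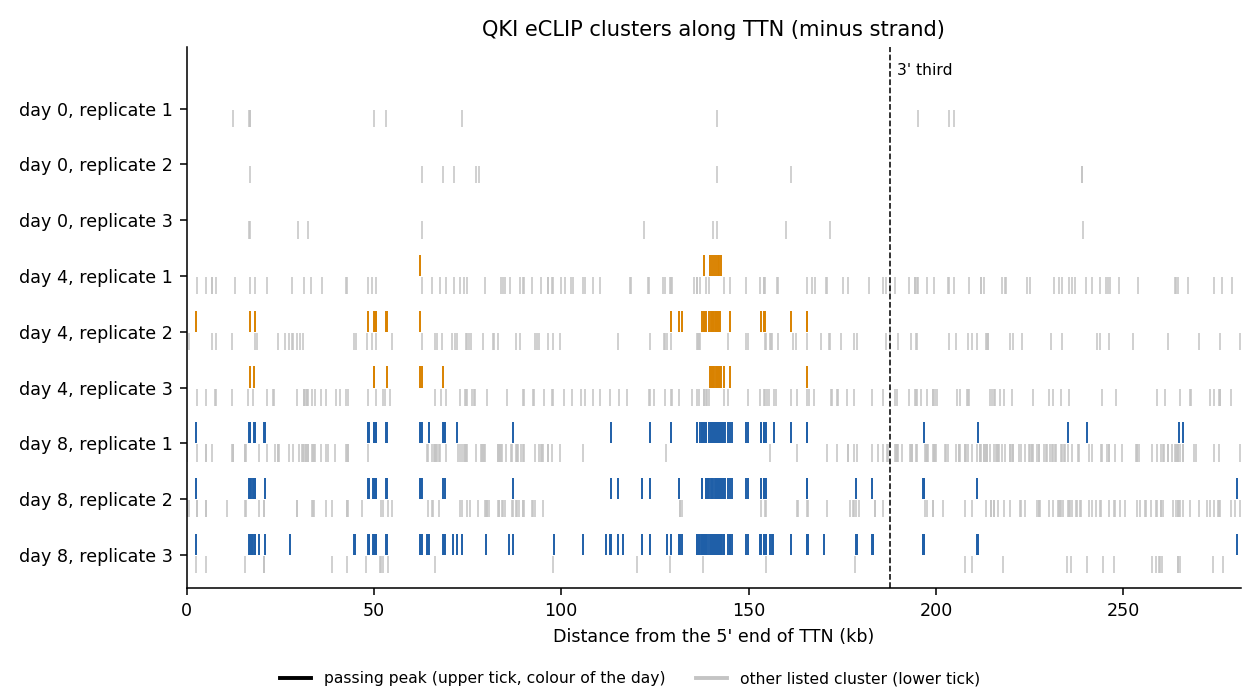
Every QKI cluster on TTN in the 9 libraries, by distance of its centre from the 5′ end of the gene (kb, horizontal axis); upper coloured ticks are passing peaks, lower grey ticks the other clusters, and the dashed line at 187.6 kb marks the start of the distal part. Passing peaks gather between 130 and 160 kb and in smaller groups nearer the 5′ end, and none lies beyond the line at day 4.

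The groups sat at the same places in each day 8 library. The fullest 10 kb of the gene ran from 140 to 150 kb from the 5′ end and held 34, 26 and 30 passing peaks in day 8 replicates 1, 2 and 3, or 29.9% ± 7.52 of the TTN peaks (SD, n = 3). All 90 clusters listed there at day 8 passed. Of the 43 footprints, 15 lay in this stretch. The 10 kb before it (130 to 140 kb) held 14.7 ± 7.23 passing peaks and the 10 kb after it (150 to 160 kb) 9 ± 4.58. Nearer the 5′ end, the stretch from 10 to 20 kb held 7.67 ± 3.06, and those starting at 40, 50 and 60 kb held 5.67 ± 1.15, 7.33 ± 1.15 and 7 ± 2. From 30 to 40 kb no day 8 library had a passing peak, although 7 clusters were listed on average.

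Day 4 libraries had their most passing peaks in the same 10 kb. From 140 to 150 kb they held 6, 14 and 11 passing peaks in replicates 1, 2 and 3, a mean of 50% of their TTN peaks. Of the 5 day 4 footprints, 4 lay there, and the other was 62.4 kb from the 5′ end. The 130 to 140 kb stretch followed with 4.33 ± 4.04 peaks, and the stretch from 50 to 60 kb with 3 ± 3. Day 4 replicate 1, the library with the fewest passing peaks overall (3030), had none between 50 and 60 kb.

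**Figure D3:**
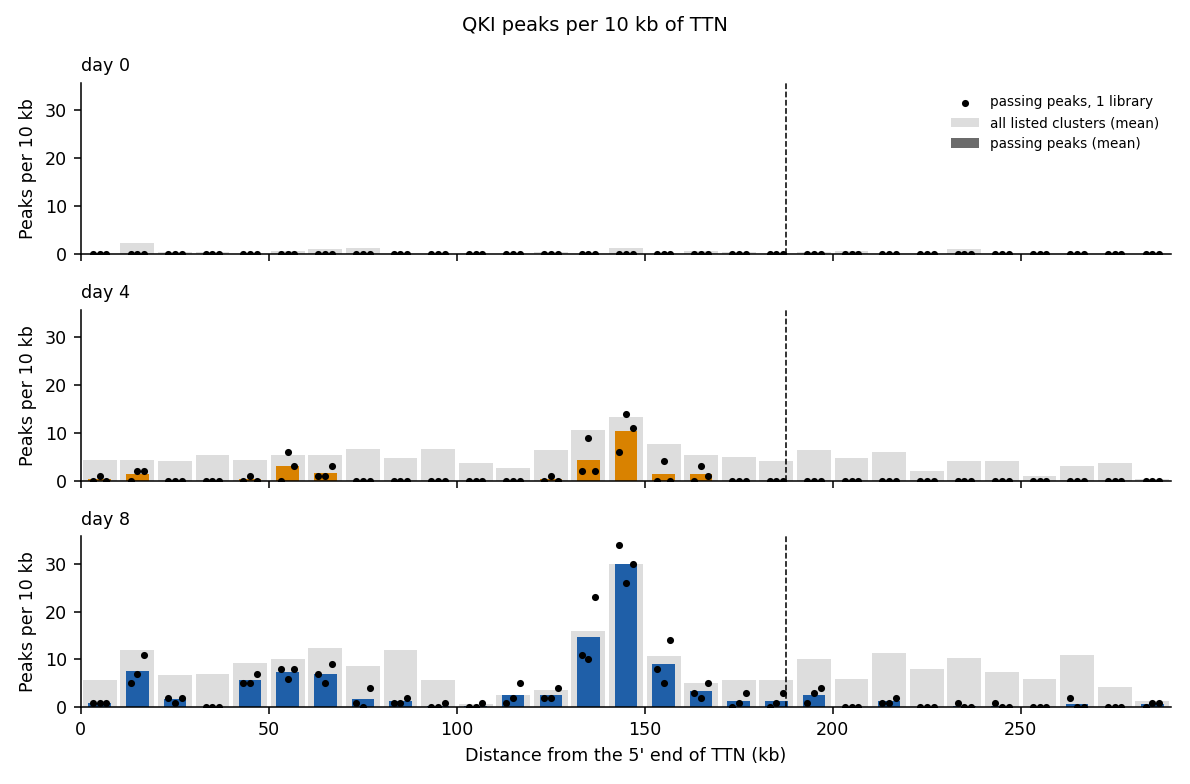
Passing QKI peaks per 10 kb of TTN (vertical axis) against distance from the 5′ end (kb), one panel per day; coloured bars are means of 3 libraries, black points single libraries, grey bars the mean of all listed clusters, and the dashed line at 187.6 kb the start of the distal part. At 140 to 150 kb the day 8 libraries reach 26 to 34 passing peaks, and beyond the line grey bars stand almost without coloured ones.

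The gene was divided to compare the I-band with the A-band. The distal part, the stretch beyond 187.6 kb from the 5′ end, makes up 33.3% of the gene's length and stood for the A-band and M-band. The proximal part before it stood for the Z-disc and I-band. An hg19 exon annotation was not used here, so this division is approximate and no peak was assigned to an exon or an intron. The PEVK part of titin also holds internally repeated exon blocks, and how reads from these were placed is not given in the sources used here.

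QKI peaks lay almost wholly in the proximal part. It held 89, 75 and 133 passing peaks in day 8 replicates 1, 2 and 3, beside 6, 5 and 7 in the distal part. At day 4 it held 9, 42 and 22, beside 0, 0 and 0. The distal share of the passing peaks was 5.86% ± 0.741 at day 8 and 0% in each day 4 library (SD, n = 3 each), a difference of 5.86 percentage points. The 0% at day 4 rests on only 9, 42 and 22 passing peaks. By the floor of 3 peaks it allows 3 of 9, 3 of 42 and 3 of 22, each a larger share than 5.86%. The groups did not overlap, and the two-sided exact permutation test gave p = 0.1, the smallest value that 3 against 3 libraries allow. A difference between the days in distal share is therefore not shown by this test.

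The distal part was not empty of clusters. It held 127, 80 and 25 clusters in day 8 replicates 1, 2 and 3 and 42, 27 and 42 in those of day 4. In day 8 libraries 4.72%, 6.25% and 28% of the distal clusters passed, against 45.4%, 48.7% and 86.9% of the proximal ones. In day 4 libraries 0% of the distal clusters passed, against 9.89%, 36.8% and 18.6% of the proximal ones. The proximal part had the higher passing share in each of these 6 libraries. Distal clusters made up 29.2% ± 13.4 of the TTN clusters at day 8 and 25.7% ± 6.24 at day 4, beside the 33.3% of the gene's length that this part makes up.

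Joining the TTN passing peaks of the 9 libraries gave 124 regions, of which 10 were distal. Of the 10, 2 passed in 3 of 3 day 8 libraries, at 179461006 to 179461160 and 179475272 to 179475325. The first of them held the one distal footprint of the merged day 8 list (179461044 to 179461087). It had log2 folds over input of 4.72, 3.55 and 5.93 in day 8 replicates 1, 2 and 3. At day 4 only replicate 2 listed a cluster there, at a log2 fold of 3.31, and it did not pass.

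Most positions bound at day 4 were bound again at day 8, and day 8 added others. Of the 124 regions, 40 passed in at least 1 day 4 library, and 1 of these passed in no day 8 library. In 3 of 3 day 8 libraries 45 regions passed. Of these 45, 5 passed in 3 of 3 day 4 libraries, 23 in 1 or 2 and 17 in none. All 5 regions that passed throughout day 4 also did so at day 8. Another 49 regions passed in a single library of the 9. The 29232 regions joined in the same way elsewhere in the genome give the background. Of the 9510 that passed in at least 1 day 4 library, 50.3% passed again in at least 1 at day 8, beside 97.5% on TTN (39 of 40). Of the 1787 that passed in 3 of 3 day 8 libraries, 28.3% passed in no day 4 library, beside 37.8% on TTN (17 of 45). TTN was chosen for its many day 8 peaks, so these shares are a description and were not tested.

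In the merged lists, 10 of the 62 TTN peaks of day 8 (16.1%, Wilson 95% interval 9.0% to 27.2%) shared at least 1 nt with one of day 4, and 5 of the 5 day 4 peaks (100%, 56.6% to 100%) shared some with one of day 8. Counted in the same way over the whole merged lists, TTN peaks included, the share was 42.3% for the 1576 peaks of day 8 and 67.7% for the 947 of day 4. These lists differ in length, and a short list cannot overlap much of a long one. Among nucleotides, 50.3% to 92.0% of those covered by the TTN passing peaks of a day 4 library were also covered in a day 8 library, over the 9 pairs.

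Day 8 libraries were more alike on TTN than day 4 libraries. The Jaccard index, the shared part of the covered nucleotides, was 0.413 to 0.461 for the 3 pairs of day 8 libraries and 0.145 to 0.258 for the 3 pairs of day 4. For the 9 pairs across the days it was 0.06 to 0.363. Day 4 replicate 1 had 563 covered nucleotides on TTN, against 2719 and 1315 in replicates 2 and 3, and an index is low by construction where one list is much shorter. Pairs share libraries and were not tested.

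The 10 footprints with the highest authors' log2 fold at day 8, among those that passed in all its libraries, were all proximal. The fold of a footprint is the highest among its joined merged-list peaks, and the fold of a library the highest among its clusters that overlap the footprint, whose bounds can be wider or narrower. The first (179622092 to 179622198) had a log2 fold of 7.38 in the merged list. Its log2 folds were 6.52, 6.84 and 7.82 in day 8 replicates 1, 2 and 3. At day 4 a cluster was listed there in replicate 3 alone, at 5.44, and it passed. Another 2 of the 10 lay next to it, at 179621996 to 179622041 (5.26 in the merged list) and 179623566 to 179623624 (5.91). They passed in 2 and in 1 of the 3 day 4 libraries.

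The second by fold, 179548441 to 179548490 at 124 kb from the 5′ end, had log2 folds of 5.18, 6.84 and 6.05 in day 8 replicates 1, 2 and 3. Day 4 replicates 2 and 3 listed it at 3.72 and 2.76 without passing. The footprint at 179558817 to 179558861, with 5.16, 5.46 and 5.59 in the day 8 libraries, had no cluster of any fold at day 4 or day 0. The most 5′ of the 10, 179653814 to 179653912 at 18.3 kb, had log2 folds of 4.78, 5.89 and 6.04 at day 8. It was listed in 2 day 4 libraries and passed in none. These 3 footprints passed in no day 4 library, and they passed in every day 8 library by the way the 10 were chosen.

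Other footprints were already present at day 4. The third by fold, 179530170 to 179530248 in the dense stretch, had log2 folds of 5.56, 4.20 and 7.87 in day 8 replicates 1, 2 and 3. Its log2 folds were 4.51, 6.11 and 5.44 in day 4 replicates 1, 2 and 3. Its neighbour at 179531455 to 179531514 had 5.20, 4.17 and 6.47 at day 8, and 4.02, 4.49 and 4.31 at day 4. Both passed in all 6 libraries. The footprint at 179609658 to 179609689 had 5.89, 4.14 and 5.96 at day 8, and 2 day 4 libraries passed there. At 179517790 to 179517958, a footprint of 3 joined peaks had 3.24, 3.12 and 4.80 at day 8 and passed in 1 day 4 library. Its merged-list value, 5.90, is that of its strongest joined peak (179517929 to 179517958) and exceeds all 3 library values. The merged-list value also exceeded all 3 library values at named footprints of a single peak. These were 179558817 to 179558861 at day 8 (5.85) and 179531422 to 179531510 at day 4 (4.54). Folds are the authors' values within each list, so only the passing calls are set side by side between days.

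**Figure D4:**
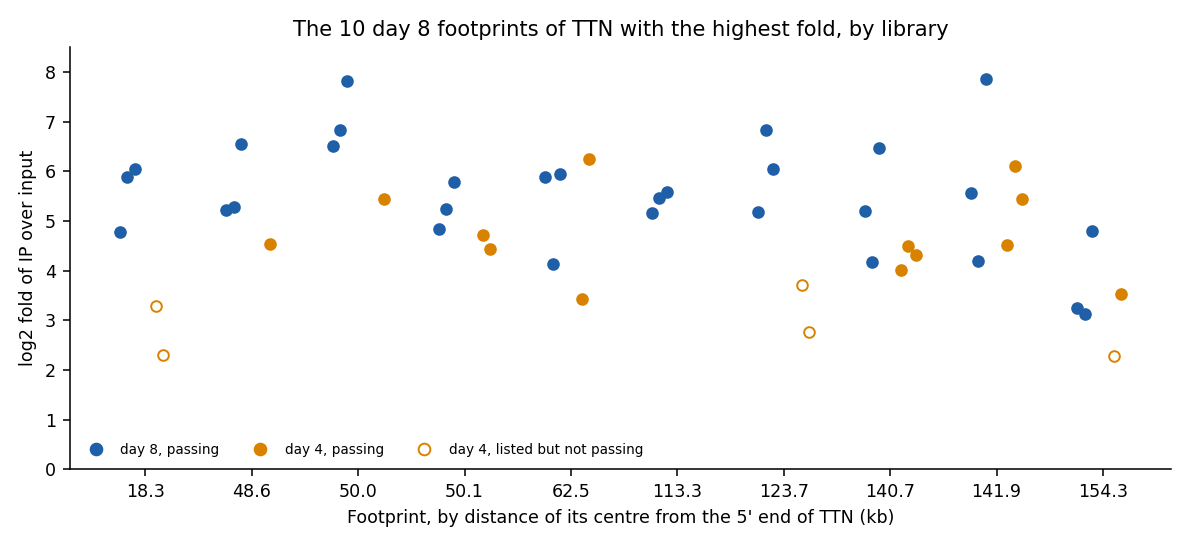
Authors' log2 fold of IP over input (vertical axis) in each library for the 10 day 8 footprints of TTN with the highest fold, ordered by distance from the 5′ end (kb); blue points are day 8 and orange points day 4 libraries, open where a listed cluster did not pass, and a missing point means that no cluster was listed. The 10 were chosen among footprints that passed in all 3 day 8 libraries, so every day 8 point set passes by that choice. Day 4 libraries, which had no part in the choice, have 3 passing points at the footprints 140.7 and 141.9 kb from the 5′ end.

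The 5 reproducible day 4 peaks were led by 179530188 to 179530242, with a log2 fold of 5.78 in the merged list. Those at 179530908 to 179530954 (4.99), 179531422 to 179531510 (4.54) and 179531957 to 179532023 (4.10) lay beside it in the dense stretch. The remaining one, 179609649 to 179609776 (4.98), was 62.4 kb from the 5′ end. No cluster of any fold was listed at any of the 5 in a day 0 library. Over the 43 day 8 footprints, 6 had a listed cluster in at least 1 day 0 library, and 36 had one in at least 1 day 4 library. The same counts were not made for footprints elsewhere in the genome, so these are a description of TTN only.

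In the single libraries, TTN passing peaks were narrower than the others. Their median width was 50, 45 and 51 nt in day 8 replicates 1, 2 and 3, against 66, 66 and 64 nt for the other passing peaks. At day 4 it was 55, 62.5 and 59.5 nt, against 60, 67 and 70 nt. The TTN median was lower in 6 of 6 libraries, with a mean difference of -11.7 nt (SD 6.40), and the two-sided exact sign-flip permutation test over libraries gave p = 0.0312, the smallest value possible with 6. With any 1 library left out, the exact sign-flip test over 5 libraries cannot go below p = 0.0625. The test pooled day 4 and day 8 libraries, which came from 1 cell line and shared many TTN positions. It thus asks only whether the difference recurs in these libraries. Median widths at other single loci were not computed, so TTN is not shown to be unusual among loci. The difference averaged -16.7 nt at day 8 and -6.67 nt at day 4. In the merged lists the order held at day 8 only. The median width of the TTN peaks there was 52.5 nt at day 8, against 68 nt for the whole list, and 67 nt at day 4 (5 peaks), against 66 nt. The length of a listed peak depends on how the authors' caller divided clusters, which is not given in the sources used here.

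**Figure D5:**
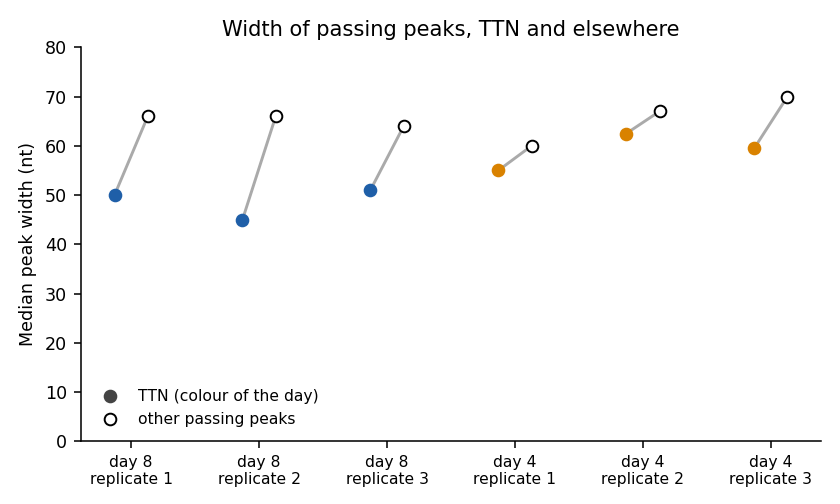
Median width (nt) of the passing QKI peaks on TTN (filled, left of each pair) and of all other passing peaks of the same library (open, right) in the day 8 and day 4 libraries. The TTN median lies below the other in each of the 6 libraries, at 45 to 51 nt against 64 to 66 nt at day 8.

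The opposite strand of the same span ran the other way. On the plus strand, where TTN-AS1 is known to lie, 8, 5 and 7 peaks passed in the day 0 libraries, 0, 1 and 1 in the day 4 libraries and 0, 0 and 0 in the day 8 libraries. These were 0.0516%, 0.0394% and 0.0536% of the passing peaks at day 0 and at most 0.0250% at day 4. The 0 at day 8 allows at most 0.0475%, 0.0805% and 0.0274% in replicates 1, 2 and 3. The limit of replicate 2 lies above every day 0 share, that of replicate 1 within their range and that of replicate 3 below them all. The difference was not tested. Clusters of any fold numbered 24, 73 and 75 at day 0, 3, 8 and 7 at day 4 and 1, 3 and 4 at day 8. All 3 day 8 shares lay below all 3 day 0 shares in 30% of the windows of the gene's length, so that order of the days is common.

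The merged day 0 list held 5 plus-strand peaks in the span, and those of day 4 and day 8 held none. A peak at 179558152 to 179558228 led with a log2 fold of 5.38. Its log2 folds were 5.18, 5.61 and 4.44 in day 0 replicates 1, 2 and 3, and no later library listed a cluster there. Another 2 peaks lay near the 3′ end of TTN, at 179398940 to 179399027 (4.02) and 179399076 to 179399154 (4.93), and 2 more at 179473900 to 179473958 (3.35) and 179474114 to 179474215 (4.40). The last passed in 3 of 3 day 0 and 2 of 3 day 4 libraries, and all 3 day 8 libraries listed a cluster there that did not pass. None of the 5 positions held a passing minus-strand peak at day 8. Such peaks covered only 5007, 4005 and 7597 nt of the 281435 nt span in day 8 replicates 1, 2 and 3. Most positions in the span thus held none, and nothing is read from this about the strands. Which transcript the plus-strand peaks belong to was not assigned.

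At day 8 the 5′ edge of the span was not shown to end a group of peaks. The gap across it was shorter than the largest gap between footprints inside the gene, 45.5 kb. Among clusters of any fold, day 8 replicate 2 listed a cluster 0.017 kb inside that edge and another 4.127 kb outside it. The outermost passing peak inside the gene lay 2.385 to 2.395 kb from the 5′ end in the 3 day 8 libraries, and the nearest passing peak outside that end was 18.6 to 23.4 kb away. Beyond the 3′ end the nearest passing minus-strand peak was at least 76.9 kb away at day 8, and inside it was 0.944 to 15.5 kb from that end.

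Other places whose peaks followed the same course were sought among 786 loci, each made of passing peaks within 20 kb of each other on a strand, with at least 20 over the 9 libraries. Likeness to TTN was the Pearson correlation over the 9 libraries of the log2 share of passing peaks, given as a description, since the libraries fall into 3 days and share their list lengths. The median locus had r = 0.07, and 33 loci exceeded 0.9. The 5 most alike each had 0 passing peaks in the 3 day 0 libraries. They are given by position, since no annotation of the build was used.

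The first was on the minus strand of chromosome 7 (35262583 to 35293695, r = 0.998), with 8, 6 and 13 passing peaks in the day 8 libraries, against 1, 4 and 3 in the day 4 libraries. The second was on the plus strand of chromosome 6 (73544450 to 73592777, r = 0.998), with 14, 7 and 20 at day 8, against 2, 7 and 3 at day 4. The third was on the plus strand of chromosome 4 (30928545 to 31056602, r = 0.994), with 16, 12 and 33 at day 8, against 1, 11 and 4 at day 4. The fourth and the fifth were neighbours on the minus strand of chromosome 5. The fourth (127636578 to 127760190, r = 0.989) had 12, 12 and 20 at day 8, against 3, 4 and 4 at day 4. The fifth (127784742 to 127873771, r = 0.984) had 7, 4 and 18 at day 8, against 2, 3 and 3 at day 4. TTN held more passing peaks than any of these loci in each day 4 and day 8 library. The gene was selected on its numbers of peaks, and its span of 281435 nt is longer than these loci (31.1 to 128 kb). Nothing is therefore read from that order.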

How the data were processed

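Cluster lists of 9 QKI eCLIP libraries (3 each at days 0, 4 and 8) and 3 merged lists were used. Sample titles gave each library's day and replicate number. Per the submitters' processing notes, cutadapt, STAR and SAMtools were used with hg19. The peak caller and duplicate filter are not given in the sources used here. Per the file headers, peaks were input-normalized. The authors gave each peak a log2 fold of IP over input and a −log10 p-value, which reached 400 in the deposited files. All listed log2 folds were above 0. The 9 input libraries enter only through these values.

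Passing peaks had a log2 fold of at least 2 and a −log10 p of at least 3. A peak was placed by its centre. Libraries were compared by exact permutation and sign-flip tests written in Python 3.11.15 with NumPy 2.4.6 and pandas 2.3.3, checked on known answers. The rule that all 3 day 8 shares lie above all 3 day 0 shares was run on simulated counts. Likeness used log2((peaks + 0.5) / (library passing peaks + 1) × 10000). Named positions were the 10 day 8 and 5 day 4 footprints with the highest fold that passed in 3 of 3 libraries, and the day 0 cluster with the highest fold, since none passed. Other positions named, such as those with clusters in 3 of 3 day 0 libraries, were picked after their values were seen. Genes linked to titin, exon positions and motif content need an hg19 annotation or genome and were not analysed here. The gene and the tests were chosen with earlier results of these data known.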

Additional observations from a re-analysis of the deposited data

How the results depend on the processing

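Read depth, mappability and RNA level were not available, so clusters cannot be told apart from expression. With all listed clusters in place of passing peaks, TTN averaged 10.7, 145 and 245 clusters per library at days 0, 4 and 8, or 0.00740%, 0.191% and 0.427% of the list. The plus strand then averaged 57.3, 6 and 2.67 clusters. With an equal number of the strongest peaks per library (3030), the day 8 number was 48.3, while its share, 1.60%, moved by less than the SD between libraries. A number of peaks cannot fall when all clusters are counted, nor rise when only the strongest are kept. The cause of the changes in share was not tested. At 50% reciprocal overlap 6.45% of the day 8 reproducible peaks overlapped a day 4 peak.

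The mean distal share at day 8 stayed above that at day 4 in each setting. Differences of the means were 2.25 to 6.87 percentage points, with exact permutation p between 0.1 and 0.7. Single libraries did not all keep this order. With all listed clusters, day 8 replicate 3 (14.0%) lay below each day 4 library (31.6%, 19.1% and 26.25%). Day 8 replicates 1 and 2 (39.3% and 34.2%) lay above them. The lowest difference was that of the 3′ 50% of the gene's length (44.2% against 41.9%, exact permutation p = 0.4). Leaving out 1 library gave 5.63 to 6.28. With a replicate block, an exact sign-flip test of same-numbered libraries gave the difference of 5.86 with p = 0.25, the smallest 3 pairs allow. Same-numbered libraries of different days had correlations of −0.228 to 0.266 over 1089 windows, and the labels give the numbers no shared source, so they were not treated as pairs. The width difference was -11.0 nt by mean width (exact sign-flip p = 0.0625) and -13.1 to -9.80 nt without 1 library (p = 0.0625 each). The cause of the mean-width change was not tested. At 8-fold and with joined peaks the exact sign-flip p was 0.0312. Leaving out 1 library moved the mean TTN share to 0.419% to 0.545% at day 4 and to 1.39% to 1.83% at day 8. No hg19 exon boundary or motif alternative was run, for want of a genome of that build.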

Other observations

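A locus next to TTN, singled out after its values were seen, followed the same course. It lay on the minus strand of chromosome 2 (179690732 to 179702175), and its passing peaks numbered 1, 0 and 0 in the day 0 libraries, 1, 4 and 3 in the day 4 libraries and 11, 6 and 13 in the day 8 libraries. Its correlation with TTN over the 9 libraries (r = 0.977) ranked 9 of the 786 loci. In the GRCh38.p14 gene table the protein-coding neighbour beyond the 5′ end of TTN is CCDC141, but the locus was not assigned to a gene, since that table is of another build.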
